A study of Mus musculus with 12 samples.

Results

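Transcripts of 35 genes of fatty acid oxidation, ketone body metabolism and PPARA regulation were followed in the livers of 12 untreated adult mice. The genes were taken from the gene counts by symbol, from a list of enzymes, carriers and known targets of PPARA, and all 35 of the 35 listed symbols were found among the 22609 genes counted. The mice fell into 4 genotypes of 3 animals each. The AEG1 mice carried Alb/AEG-1, the MYC mice carried Alb/c-Myc, the AEG1_MYC mice carried both transgenes (Alb/AEG-1/c-Myc), and the WT mice carried neither. All 4 genotypes were offspring of heterozygous Alb/AEG-1 mice crossed with heterozygous Alb/c-Myc mice. An Alb transgene is driven by the albumin promoter, which is active in hepatocytes, so the transgenes are a model of the hepatocyte and not of other liver cells. Mtdh encodes AEG-1 (astrocyte elevated gene-1), and Myc encodes a transcription factor that drives growth. The series concerns how both act together in liver cancer. The mice of a genotype are separate animals as deposited, and p-values measure the spread between them. The labels give neither sex, exact age, litter, feeding state nor hour of collection, and the last of these matter for genes that respond to fasting and to the time of day.

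In the liver, long fatty acids are bound to coenzyme A, passed into mitochondria by the carnitine shuttle and shortened there by repeated rounds of dehydrogenation, hydration, a further oxidation and thiolytic cleavage. Electrons from the first step leave through the electron transfer flavoprotein, and the acetyl-CoA formed can be turned into ketone bodies. Very long chains are first shortened in peroxisomes. PPARA, a nuclear receptor that binds fatty acids, forms a pair with RXR and switches on many of these genes in fasting, with PPARGC1A as a coactivator. Its binding sites are direct repeats of a short hexamer with a single base between them.

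Each library held 21931197 to 40552316 reads in genes, and the 35 genes together took 1.25% to 1.65% of them. Levels are given as CPM, read counts relative to the size of the library, with TMM factors, which compare a gene between libraries but not genes with each other. The lowest count of any of the 35 genes in any library was 44 reads, for Fgf21, and all 35 passed the filter on low counts, along with 13684 genes in all. Myc stood at 3.93, 3.54 and 4.59 CPM in AEG1 livers, 23.4, 30.5 and 53.7 CPM in MYC livers and 72.95, 165 and 58.4 CPM in AEG1_MYC livers, against 4.73, 2.79 and 2.26 CPM in WT livers, so every library labelled with the MYC transgene was above every library without it. Mtdh gave no such check of the AEG1 label, with 98.2, 101 and 92.97 CPM in AEG1 livers, 99.3, 95.6 and 96.6 CPM in MYC livers and 112, 91.4 and 88.9 CPM in AEG1_MYC livers, against 99.8, 102 and 99.4 CPM in WT livers and a log2 fold change of -0.04 ± 0.10 in AEG1 versus WT, and whether reads of the transgene count towards Mtdh is not given in the sources used here. AEG1_MYC replicates 1 and 2 stood apart, with a mean correlation to the other libraries of 0.955 and 0.923 over log2 CPM of all tested genes, where the other 10 libraries had 0.968 to 0.972. The summed level of 7 periportal hepatocyte markers was 656 CPM in AEG1_MYC replicate 2, against 3980.5 to 7074 CPM in the other 11 libraries, and that of 7 pericentral markers was 34045 CPM there, against 5034 to 14949 CPM. The pericentral sums of AEG1_MYC replicates 1 and 3 (12608 and 14949 CPM) were also above those of all AEG1, MYC and WT libraries (highest 10866 CPM, in WT replicate 1). Of these markers, Cyp2e1 in AEG1_MYC replicate 1 lay within the range of the other genotypes. Hepatocyte markers (5 genes, albumin among them) summed to 32956 CPM in that library and 47851 CPM in AEG1_MYC replicate 1, and to 63010.1 to 106008 CPM in the rest. Albumin made up most of each sum, with 24127 CPM in AEG1_MYC replicate 2 and 39718 CPM in replicate 1. Ttr was also lower in both libraries than in all others, and Serpina1c was lowest in replicate 2. Apoa1 and Hnf4a lay within the range of the other libraries in both. Sums of 5 adipocyte and 5 skeletal muscle markers stayed at or under 5.35 and 1.001 CPM in all 12 libraries.

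The promoters show which of the genes carry the letters of a PPARA site close to the start of transcription. RefSeq windows from 250 bases before to 50 bases after the gene start (GRCm38.p6) were at hand for 30 of the 35 genes. The direct repeat AGGTCANAGGTCA was searched on both strands with up to 2 mismatches in its 12 fixed letters. It was found in 5 of the 30 genes (16.7%), against 4.4% of the 27025 genes with a window. The genes were Fabp1, Cd36, Etfa, Slc25a20 and Acot4. The stricter form AGGNCANAGGNCA, with no mismatch, occurred in Fabp1 only, 3.33% of the genes of the list against 0.451% of all genes, and at the same place as the looser match. The E-box CACGTG, a site that c-Myc binds with its partner MAX, lay in the windows of Fgf21 and Acot4, 6.67% against 8.09% of all genes. A match is a description of the letters in these windows and not evidence of binding.

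Windows of both Fabp1 and Acot4 are printed 5′ to 3′ along the gene, because Fabp1 held the only strict match and Acot4 held both kinds of site. Capitals mark the direct repeat on the reverse strand and, in Acot4, the E-box before it. The Fabp1 window lies at chr6:71199629-71199928 on the + strand and the Acot4 window at chr12:84038129-84038428 on the + strand.
Fabp1: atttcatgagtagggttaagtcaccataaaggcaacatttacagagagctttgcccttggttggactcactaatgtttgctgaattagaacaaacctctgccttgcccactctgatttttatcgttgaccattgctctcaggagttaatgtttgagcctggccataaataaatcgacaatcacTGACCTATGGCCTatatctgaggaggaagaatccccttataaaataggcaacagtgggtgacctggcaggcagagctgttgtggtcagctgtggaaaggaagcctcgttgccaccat
Acot4: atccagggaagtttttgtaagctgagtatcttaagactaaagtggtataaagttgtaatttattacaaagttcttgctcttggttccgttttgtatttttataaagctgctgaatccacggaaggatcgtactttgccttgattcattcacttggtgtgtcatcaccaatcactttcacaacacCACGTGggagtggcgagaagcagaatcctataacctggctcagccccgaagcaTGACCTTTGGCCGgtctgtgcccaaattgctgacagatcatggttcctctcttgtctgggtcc

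The matches in the other 3 windows had 2 mismatches each and are shown for comparison with that of Fabp1, which had 1. Each is written along the gene, with the match in capitals.
Cd36: TGGCCTCTGACTT
Etfa: TTACCTTTGCCCT
Slc25a20: AGGTGAAAGGTCG
All but that of Slc25a20 read as the reverse of the repeat.

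None of the 35 genes passed edgeR's quasi-likelihood test at an adjusted p under 0.05 over all 13684 genes, in any of 7 comparisons. With 0 of 35 called, the shares of all genes called were 0% in AEG1 versus WT, 0% in MYC versus WT, 0.263% in AEG1_MYC versus WT, 0.322% in AEG1_MYC versus AEG1 and 0.205% in AEG1_MYC versus MYC. For the interaction, the effect of AEG1 with MYC less its effect without MYC, the share was 0.0219%, and for any difference among the 4 genotypes it was 0.519%. At such shares less than a single call would come from 35 genes. The lowest adjusted p of a listed gene was 0.123, for Acaa1a in AEG1_MYC versus AEG1. The same test did not call Myc itself in MYC versus WT (log2 fold change 3.45 ± 0.47, adjusted p = 0.266), though its groups did not overlap. A missing call is therefore not evidence that a gene was unchanged. No gene of the list was thus called by the main test, and the sizes and spreads that follow are descriptions.

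At an unadjusted p under 0.05, 1 of the 35 genes stood out in AEG1 versus WT (Cd36, higher), where 3.92% of all genes did, and 1 in MYC versus WT (Angptl4, lower), where 3.47% did. There were 4 in AEG1_MYC versus WT (3 higher and 1 lower, against 17.2% of all genes), 5 in AEG1_MYC versus AEG1 (4 higher and 1 lower, against 17.4%) and 8 in AEG1_MYC versus MYC, all higher, against 15.2%. The interaction had 5 (all positive, against 9.25% of all genes) and the test over 4 genotypes 4 (against 12.7%). As shares of 35 these are 2.86%, 11.4%, 14.3% and 22.9% for 1, 4, 5 and 8 genes, and AEG1_MYC versus MYC and the interaction were the 2 comparisons in which the genes of the list exceeded the share of all genes by more than a single gene, an excess that AEG1_MYC versus MYC did not keep without AEG1_MYC replicate 1 (17.1% against 16.1% of all genes).

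**Figure D1:**
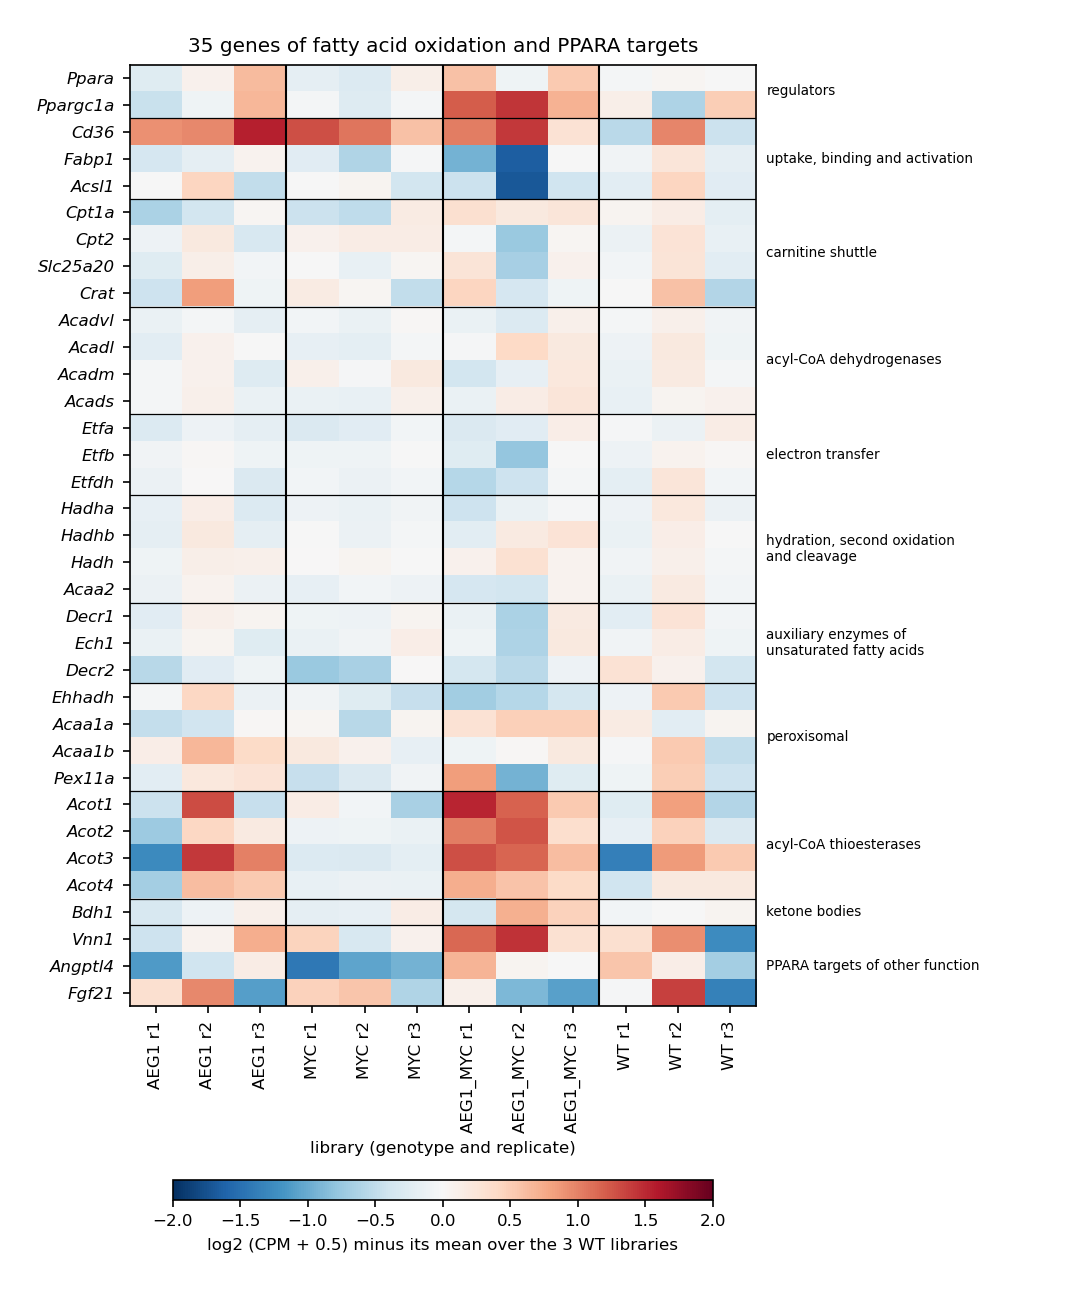
Each row is 1 of the 35 genes, grouped by role, and each column 1 library, with AEG1, MYC, AEG1_MYC and WT from left to right; colour is log2 (CPM + 0.5) minus the mean of the 3 WT libraries. Rows of the acyl-CoA dehydrogenases, electron transfer and later mitochondrial steps stay pale, with Etfb in AEG1_MYC replicate 2 the darkest of them, and rows of the thioesterases, Cd36, Fabp1, Acsl1 and the last 3 genes hold the strong colours.

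The median difference over the 35 genes was small in each comparison. It was -0.05 in AEG1 versus WT (24 of 35 negative), -0.12 in MYC versus WT (31 negative), -0.01 in AEG1_MYC versus WT (18 negative), 0.005 in AEG1_MYC versus AEG1 and 0.10 in AEG1_MYC versus MYC, all on the log2 scale. WT replicate 2 weighed on these medians: without it they were 0.05 in AEG1 versus WT, -0.00109 in MYC versus WT and 0.16 in AEG1_MYC versus WT. Over all genes these medians lay between -0.003 and 0.013. Between mice of 1 genotype, a library's median over the 35 genes varied with an SD of 0.139. With all libraries, the medians of the 35 genes in the comparisons above were smaller than this in size. The SD is that of single libraries and not the error of a difference between genotypes, which was not computed. The 3 comparisons with WT share their control mice and 3 comparisons share the AEG1_MYC mice.

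**Figure D2:**
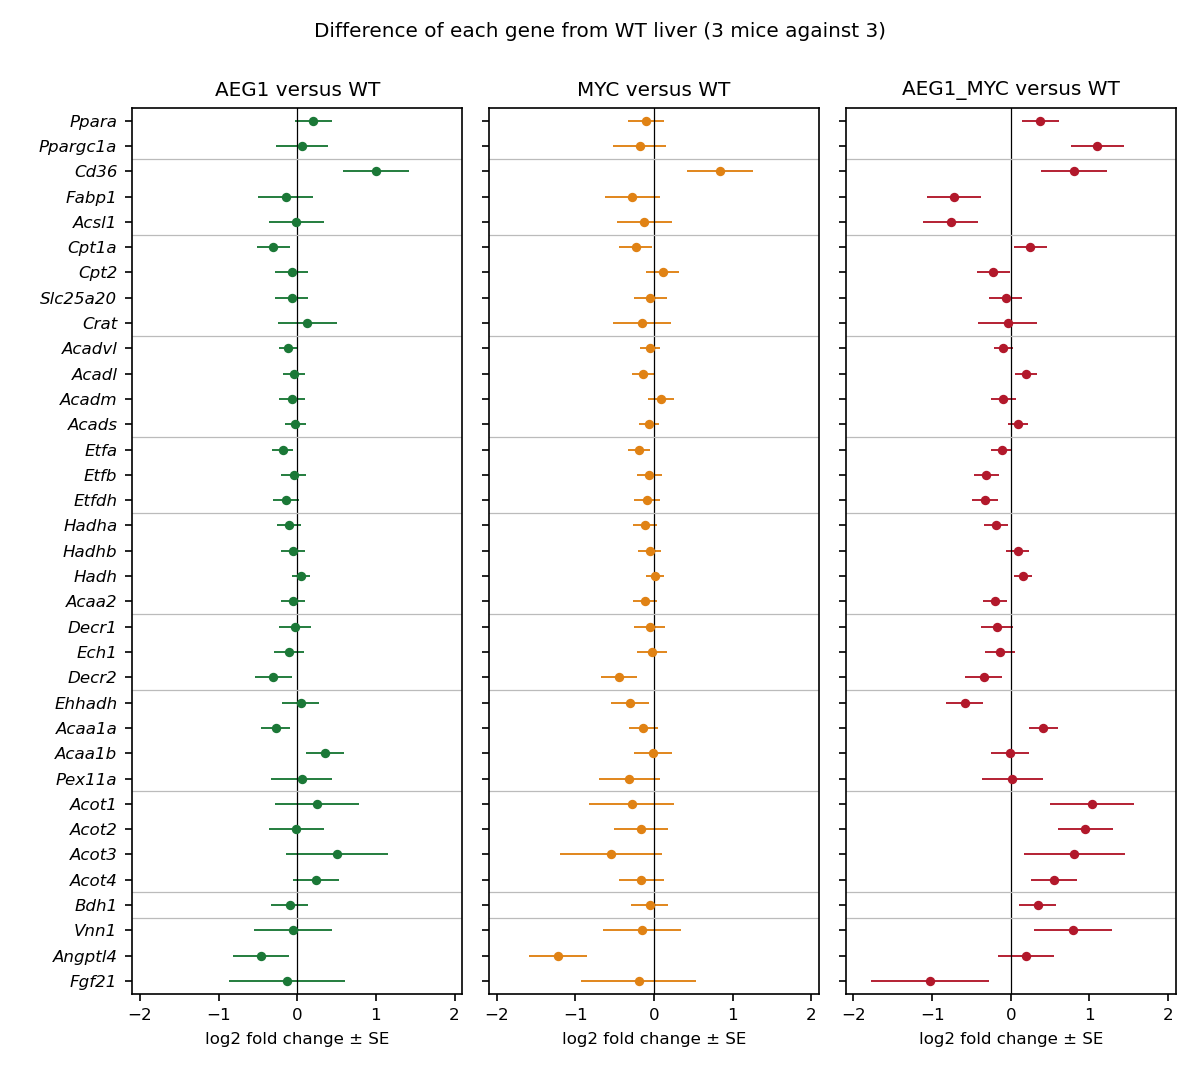
Points are log2 fold changes of the 35 genes, with bars of 1 SE, for AEG1, MYC and AEG1_MYC livers against WT livers (3 mice against 3). Bars of most genes cross 0 in the AEG1 and MYC panels, and the 4 Acot genes and Ppargc1a lie right of 0 in the AEG1_MYC panel, where no gene passed the threshold.

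Of the regulators, Ppargc1a, the coactivator of PPARA in fasting, had the higher values in AEG1_MYC livers. It stood at 9.53, 12.4 and 21.1 CPM in AEG1 livers, 12.7, 10.9 and 12.8 CPM in MYC livers and 31.2, 36.1 and 21.6 CPM in AEG1_MYC livers, against 14.3, 8.38 and 18.7 CPM in WT livers. All 3 AEG1_MYC libraries lay above every other library, though AEG1 replicate 3 and AEG1_MYC replicate 3 nearly met. Its log2 fold change was 1.10 ± 0.33 (adjusted p = 0.167) against WT, 1.04 ± 0.33 (adjusted p = 0.168) against AEG1 and 1.29 ± 0.34 (adjusted p = 0.164) against MYC (edgeR, 3 mice against 3). Without AEG1_MYC replicates 1 and 2, with replicate 3 alone left in that genotype, these were 0.65 against WT and 0.83 against MYC. With all libraries, DESeq2 called it against WT (adjusted p = 0.0386, with 4.76% of all genes called) and against MYC (adjusted p = 0.0125, with 3.26% called). Ppara itself stood at 369.6, 467 and 681 CPM in AEG1 livers, 388, 365 and 477 CPM in MYC livers and 663, 415 and 628 CPM in AEG1_MYC livers, against 427, 453 and 438 CPM in WT livers. Its levels overlapped in every pair of genotypes tested, with the 3 WT mice close together, and its log2 fold change in AEG1_MYC versus WT was 0.37 ± 0.23 (adjusted p = 0.432).

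No gene of uptake, binding and activation was called by edgeR with all libraries. Cd36, a fatty acid transporter of the cell surface that macrophages and endothelium also carry, stood at 210.0, 217 and 326 CPM in AEG1 livers, 271, 233 and 167 CPM in MYC livers and 225, 297 and 136 CPM in AEG1_MYC livers, against 76.6, 218 and 81.8 CPM in WT livers. WT replicates 1 and 3 were the lowest of all libraries, while WT replicate 2 lay within the range of the transgenic mice. The log2 fold changes were 1 ± 0.42 (adjusted p = 1) in AEG1 versus WT, 0.84 ± 0.42 (adjusted p = 0.999) in MYC versus WT and 0.81 ± 0.42 (adjusted p = 0.343) in AEG1_MYC versus WT. Without WT replicate 2 those of AEG1 and AEG1_MYC versus WT were 1.65 and 1.47. Endothelial markers (6 genes) summed to 286, 295 and 324 CPM in AEG1 livers, 247, 289.5 and 249 CPM in MYC livers and 263, 303 and 237 CPM in AEG1_MYC livers, against 293, 232 and 219 CPM in WT livers, and Kupffer cell markers (6 genes) to 208, 206 and 387 CPM in AEG1 livers, 215, 303 and 244 CPM in MYC livers and 736, 94.97 and 212 CPM in AEG1_MYC livers, against 513, 145 and 224 CPM in WT livers. Their part in the Cd36 values was not tested, and in whole liver fewer cells of a type cannot be told apart from less RNA per cell.

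Fabp1, the fatty acid binding protein of the hepatocyte cytosol, stood at 3583, 3996 and 4723 CPM in AEG1 livers, 3834, 2977 and 4449 CPM in MYC livers and 2333, 1435 and 4481 CPM in AEG1_MYC livers, against 4292, 5329.5 and 3991 CPM in WT livers. AEG1_MYC replicates 1 and 2 held the lowest values of all 12 libraries, and AEG1_MYC replicate 3 lay among the WT mice. The log2 fold change was -0.72 ± 0.35 (adjusted p = 0.313) against WT. Without AEG1_MYC replicate 3 it was -1.26 (adjusted p = 0.0305) against WT and -1.11 (adjusted p = 0.0424) against AEG1, and Fabp1 was then the 1 gene of the 35 called, where 4.95% and 4.54% of all genes were called. Acsl1, which joins long fatty acids to coenzyme A, stood at 1650.5, 2251 and 1182 CPM in AEG1 livers, 1663, 1737 and 1295 CPM in MYC livers and 1243, 513 and 1260.0 CPM in AEG1_MYC livers, against 1447, 2240.0 and 1429 CPM in WT livers. The AEG1_MYC libraries were all below every WT and every MYC library, replicate 2 by far the most, and AEG1 replicate 3 lay lower than AEG1_MYC replicates 1 and 3. Its log2 fold change was -0.76 ± 0.35 (adjusted p = 0.297) against WT. In AEG1_MYC replicate 2, the library with the low Fabp1 and Acsl1, periportal markers were also at their lowest and pericentral markers at their highest, as given above. The pericentral sum was higher in every AEG1_MYC library than in every library of the other genotypes. The part of zonation in the Fabp1 and Acsl1 values was not tested.

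No gene of the carnitine shuttle was called. Cpt1a, which forms acylcarnitines at the outer mitochondrial membrane and sets the pace of oxidation, stood at 389.8, 466 and 616 CPM in AEG1 livers, 449, 424 and 674 CPM in MYC livers and 754, 689 and 715 CPM in AEG1_MYC livers, against 624, 668 and 527 CPM in WT livers. The 3 AEG1_MYC libraries were the highest of all, close to MYC replicate 3 and WT replicate 2. Its log2 fold change was 0.25 ± 0.21 (adjusted p = 0.56) against WT, 0.55 ± 0.21 (adjusted p = 0.22) against AEG1 and 0.48 ± 0.21 (adjusted p = 0.315) against MYC, and the interaction was 0.79 ± 0.30 (adjusted p = 0.488). Cpt2, which releases the fatty acid inside the mitochondrion, ranged over 106 to 215 CPM in the 12 libraries, and the carrier Slc25a20 over 75.9 to 144 CPM, both with the lowest value in AEG1_MYC replicate 2 and the highest in WT replicate 2. The acetyl transferase Crat ranged over 35.9 to 96.2 CPM, and its highest values were in AEG1 replicate 2 and WT replicate 2. Against WT, the log2 fold changes of these 3 genes lay between -0.22 and 0.13.

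The enzymes of the mitochondrial spiral itself varied less between mice than most other genes of the list. They are the acyl-CoA dehydrogenases of very long, long, medium and short chains (Acadvl, Acadl, Acadm and Acads), the electron transfer flavoprotein with its dehydrogenase (Etfa, Etfb and Etfdh), both subunits of the trifunctional protein (Hadha and Hadhb), the hydroxyacyl-CoA dehydrogenase Hadh and the thiolase Acaa2. Across all 12 libraries, and among them AEG1_MYC replicates 1 and 2, the highest value of each of these 11 genes was 1.3 to 1.8 times its lowest, and outside the 11 genes the lowest such ratio was 1.75, for Ech1. Hadh stood at 409, 469.6 and 467 CPM in AEG1 livers, 434, 448 and 432 CPM in MYC livers and 458, 535 and 455 CPM in AEG1_MYC livers, against 413, 467 and 423 CPM in WT livers. Among the dehydrogenases, Acadvl ranged over 432 to 561 CPM, Acadl over 233 to 352, Acadm over 347 to 516 and Acads over 183 to 239. Etfa ranged over 258 to 347 CPM and Etfdh over 318 to 554, and of the later steps Hadha ranged over 434 to 672, Hadhb over 26.4 to 36.9 and Acaa2 over 774 to 1139.7 CPM. Etfdh and Acaa2 were lowest in AEG1_MYC replicates 1 and 2 and highest in WT replicate 2. Etfb, which had the highest of those ratios, stood at 219, 233 and 217 CPM in AEG1 livers, 217, 218 and 227 CPM in MYC livers and 193, 134 and 229 CPM in AEG1_MYC livers, against 215, 242 and 233 CPM in WT livers, and its low value was that of AEG1_MYC replicate 2. The log2 fold changes of the 11 genes lay between -0.18 and 0.05 in AEG1 versus WT, between -0.19 and 0.09 in MYC versus WT and between -0.33 and 0.19 in AEG1_MYC versus WT, with a median SE of 0.15 in the last. In AEG1_MYC versus WT the most negative were Etfdh (log2 fold change -0.33 ± 0.16, adjusted p = 0.325) and Etfb (-0.31 ± 0.16, adjusted p = 0.343), and the most positive was Acadl (0.19 ± 0.14, adjusted p = 0.499).

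Levels per length bear on Hadhb. In WT liver, Hadha had 145 CPM per kb of its principal transcript and Hadhb 15, and both encode subunits of 1 complex. Their genes lie head to head, with 85 bases between them in GENCODE M21. Of the 50-base words of the Hadhb transcript, 62.4% also occur in other genes, 61.5% in the processed pseudogene Gm13910, and of those of Hadha 0%. The deposited counts hold alignments that were not unique in a summary line, outside any gene, so the level of Hadhb is uncertain.

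The auxiliary enzymes of unsaturated fatty acids gave small differences too. Decr1 and Ech1, of the mitochondrion, ranged over 182 to 342 and 265 to 465 CPM, with their lowest values in AEG1_MYC replicate 2. Decr2, the peroxisomal counterpart of Decr1, stood at 158, 197 and 218 CPM in AEG1 livers, 138, 147 and 234 CPM in MYC livers and 182, 159 and 216 CPM in AEG1_MYC livers, against 282, 245 and 180.3 CPM in WT livers. Set against WT, it had log2 fold changes of -0.30 ± 0.23 (adjusted p = 1) in AEG1, -0.45 ± 0.23 (adjusted p = 0.999) in MYC and -0.34 ± 0.23 (adjusted p = 0.463) in AEG1_MYC livers.

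Among peroxisomal genes, the values did not move as 1 group. Ehhadh, the bifunctional enzyme that hydrates and oxidizes chains in the peroxisome, stood at 489, 667 and 462 CPM in AEG1 livers, 479, 425 and 365 CPM in MYC livers and 311, 338 and 395 CPM in AEG1_MYC livers, against 467, 722 and 378 CPM in WT livers. AEG1_MYC libraries lay below every AEG1 library and overlapped with WT, and the log2 fold changes were -0.59 ± 0.24 (adjusted p = 0.243) against WT and -0.63 ± 0.24 (adjusted p = 0.216) against AEG1. WT replicate 2 was the highest of all libraries, and without it the difference from WT was -0.28. The thiolase Acaa1a, which cleaves the shortened chain, stood at 94.2, 99.95 and 132 CPM in AEG1 livers, 135, 89.1 and 135 CPM in MYC livers and 160.3, 183 and 181 CPM in AEG1_MYC livers, against 146, 112 and 136 CPM in WT livers. Its AEG1_MYC values lay above all other libraries, with log2 fold changes of 0.41 ± 0.18 (adjusted p = 0.284) against WT, 0.68 ± 0.18 (adjusted p = 0.123) against AEG1 and 0.55 ± 0.18 (adjusted p = 0.233) against MYC and an interaction of 0.82 ± 0.26 (adjusted p = 0.429). DESeq2 called Acaa1a in AEG1_MYC versus AEG1 (adjusted p = 0.0219), where it called 5.12% of all genes.

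Its near copy Acaa1b stood at 752, 1092 and 896 CPM in AEG1 livers, 786, 730.0 and 617 CPM in MYC livers and 645, 699 and 789 CPM in AEG1_MYC livers, against 674, 992 and 486 CPM in WT livers, with a log2 fold change of -0.01 ± 0.24 (adjusted p = 0.982) in AEG1_MYC versus WT. Of the 50-base words of Acaa1a, 34% occur in Acaa1b, and Acaa1a overlaps Myd88 on the other strand in GENCODE M21, and whether the counting used strand is not stated, so the counts of both genes are uncertain. Pex11a, which takes part in the division of peroxisomes, stood at 51.7, 69.5 and 72.3 CPM in AEG1 livers, 43.2, 49.04 and 57.2 CPM in MYC livers and 107, 30.8 and 50.5 CPM in AEG1_MYC livers, against 56.6, 84.3 and 44.8 CPM in WT livers. Its highest and its lowest value of all 12 libraries were both in AEG1_MYC livers, and the log2 fold change against WT was 0.02 ± 0.39 (adjusted p = 0.983).

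The 4 acyl-CoA thioesterases, which split acyl-CoA into free fatty acid and coenzyme A, lie side by side on chromosome 12. All 4 stood higher in every AEG1_MYC library than in every MYC library, and none passed the test. Acot1, of the cytosol, stood at 9.48, 32.5 and 9.26 CPM in AEG1 livers, 14.4, 12.5 and 8.09 CPM in MYC livers and 37.98, 29.98 and 18.8 CPM in AEG1_MYC livers, against 10.9, 23.3 and 8.41 CPM in WT livers. Acot2, of the mitochondrion, stood at 2.76, 6.74 and 5.65 CPM in AEG1 livers, 4.52, 4.597 and 4.43 CPM in MYC livers and 10.5, 12.4 and 6.32 CPM in AEG1_MYC livers, against 4.33, 6.93 and 3.93 CPM in WT livers. In both genes AEG1 replicate 2 and WT replicate 2 were also high. Acot3 stood at 4.098, 29.1 and 21.7 CPM in AEG1 livers, 8.63, 8.55 and 9.14 CPM in MYC livers and 26.5, 24.4 and 16.5 CPM in AEG1_MYC livers, against 3.78, 19.4 and 15.4 CPM in WT livers. Acot4 stood at 27.9, 69.6 and 65.3 CPM in AEG1 livers, 40.7, 41.5 and 41.1 CPM in MYC livers and 75.3, 67.2 and 58.95 CPM in AEG1_MYC livers, against 34.3, 51.7 and 51.8 CPM in WT livers, and only for Acot4 were the AEG1_MYC libraries also above every WT library. The peroxisomal Acot3 and Acot4 both had their lowest AEG1 and WT values in replicate 1 of each genotype.

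The log2 fold changes in AEG1_MYC versus MYC were 1.31 ± 0.54 (adjusted p = 0.293) for Acot1, 1.11 ± 0.35 (adjusted p = 0.215) for Acot2, 1.36 ± 0.65 (adjusted p = 0.351) for Acot3 and 0.71 ± 0.29 (adjusted p = 0.286) for Acot4. Acot1 and Acot2 were higher in AEG1_MYC replicates 1 and 2 than in replicate 3. Those are the libraries with low sums of hepatocyte markers, which are mostly albumin. The part of these markers in the Acot values was not tested. Without AEG1_MYC replicates 1 and 2, replicate 3 alone is left in that genotype. The differences from MYC were then 0.70 for Acot1, 0.49 for Acot2, 0.92 for Acot3 and 0.52 for Acot4. Against WT, with all libraries, they were 0.55 to 1.03 in AEG1_MYC livers, and all 4 were negative in MYC livers (-0.55 to -0.16). Shared 50-base words made up 33.2% of Acot1, 27.7% of Acot2, 8.31% of Acot3 and 5.2% of Acot4, with Acot1 and Acot2 each the other's main partner. Acot3 and Acot4 also overlap Gm49366 on the same strand and an antisense gene in GENCODE M21. The counts of all 4 are therefore uncertain.

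**Figure D3:**
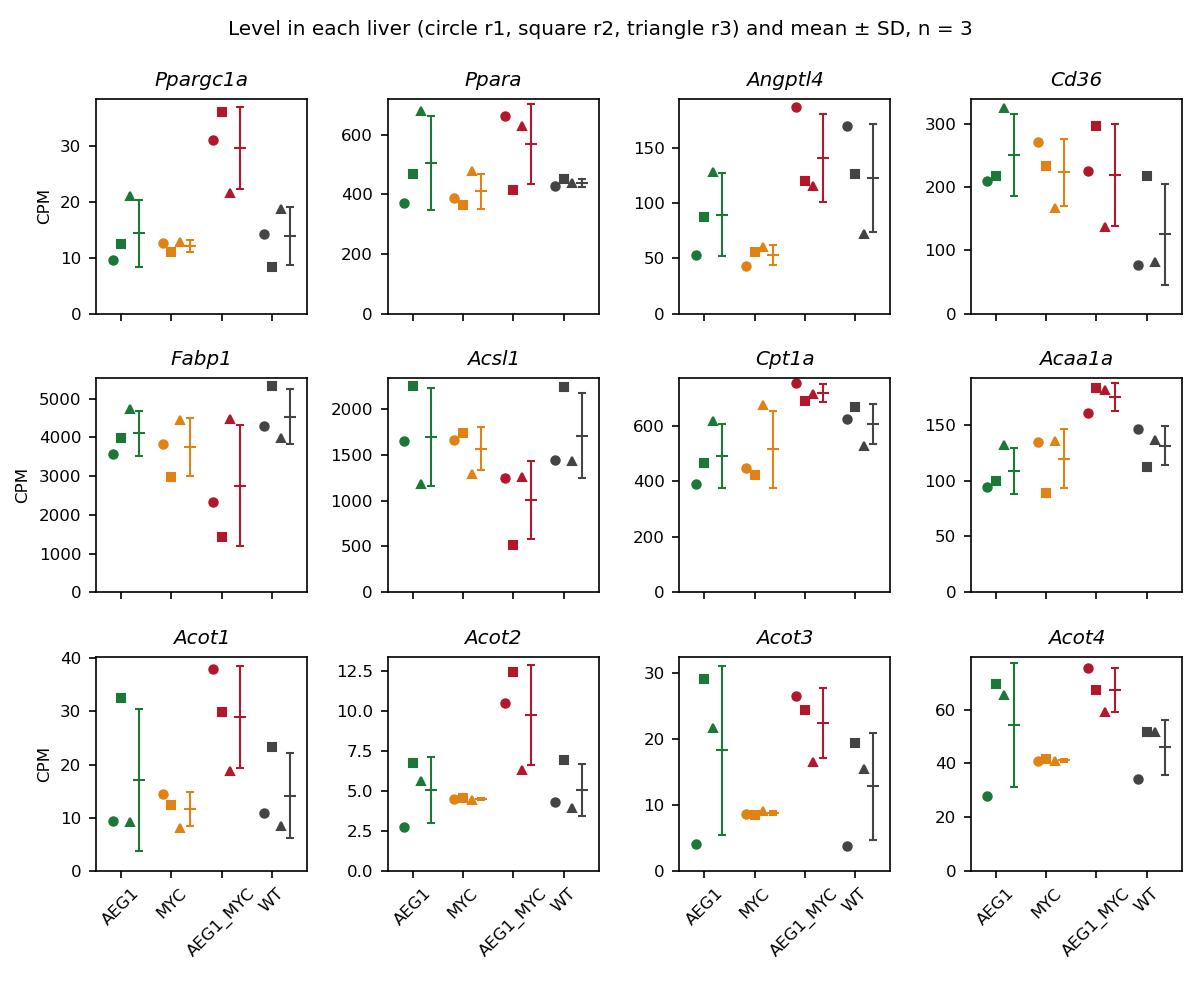
Panels give CPM of 12 genes in every liver (circle, square and triangle for replicates 1, 2 and 3) with mean ± SD of 3 mice, for AEG1, MYC, AEG1_MYC and WT from left to right. AEG1_MYC points of Ppargc1a, Cpt1a and Acaa1a lie above all others, and those of the 4 Acot genes above all MYC points, while Fabp1 and Acsl1 are low in AEG1_MYC replicate 2.

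For ketone bodies, the list holds Bdh1, which interconverts acetoacetate and hydroxybutyrate. It stood at 309, 357 and 411 CPM in AEG1 livers, 339, 343 and 427 CPM in MYC livers and 299.6, 628 and 530.0 CPM in AEG1_MYC livers, against 369.6, 382 and 401 CPM in WT livers. AEG1_MYC replicates 2 and 3 were the highest of all libraries and replicate 1 the lowest, and the log2 fold change against WT was 0.34 ± 0.23 (adjusted p = 0.471).

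Angptl4, a secreted inhibitor of lipoprotein lipase and a target of PPARA, had the largest interaction of the 35 genes. It stood at 52.8, 87.6 and 128 CPM in AEG1 livers, 42.9, 55.5 and 60.1 CPM in MYC livers and 187, 120.4 and 116 CPM in AEG1_MYC livers, against 170.1, 127 and 72.5 CPM in WT livers. Every MYC library was below every WT library and below every AEG1_MYC library, and AEG1_MYC overlapped with WT. The log2 fold changes were -1.22 ± 0.36 (adjusted p = 0.999) in MYC versus WT, 0.20 ± 0.36 (adjusted p = 0.803) in AEG1_MYC versus WT and 1.42 ± 0.36 (adjusted p = 0.164) in AEG1_MYC versus MYC, and the interaction was 1.88 ± 0.51 (adjusted p = 0.36). DESeq2 called Angptl4 in AEG1_MYC versus MYC (adjusted p = 0.00741) and in the interaction (adjusted p = 0.0341), where it called 1.11% of all genes. In the test over 4 genotypes it called Ppargc1a and Angptl4, with 5.39% of all genes, and in AEG1 versus WT and MYC versus WT it called 0 of the 35, with 0.11% and 0.205% of all genes.

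Vnn1, a pantetheinase of coenzyme A turnover, stood at 47.3, 66.2 and 105 CPM in AEG1 livers, 85.6, 50.5 and 67.3 CPM in MYC livers and 141, 172 and 78.02 CPM in AEG1_MYC livers, against 78.9, 121 and 26.1 CPM in WT livers, and the lowest value of all 12 libraries was in WT replicate 3. Fgf21, the fasting hormone of the liver, stood at 7.02, 11.4 and 2.33 CPM in AEG1 livers, 7.804, 8.39 and 3.504 CPM in MYC livers and 5.98, 2.75 and 2.34 CPM in AEG1_MYC livers, against 5.46, 15.2 and 1.88 CPM in WT livers. It was highest in WT replicate 2 and lowest in WT replicate 3, so both ends of its range were WT mice. The log2 fold changes in AEG1_MYC versus WT were 0.79 ± 0.50 (adjusted p = 0.436) for Vnn1 and -1.03 ± 0.75 (adjusted p = 0.5) for Fgf21. Without WT replicate 2 that of Fgf21 was -0.01.

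Pooled over the 4 genotypes, the spread between mice of 1 genotype was lower for the 11 genes of the mitochondrial spiral than for the rest of the list. On the log2 scale this SD was 0.0997 to 0.203 for these 11 enzymes and electron carriers, all under the median of all tested genes (0.23). It was above that median for the other 24 of the 35 genes, mitochondrial ones such as Cpt2, Decr1 and Ech1 among them. The median was 0.57 for the thioesterases, 0.489 for uptake, binding and activation and 0.724 for Vnn1, Angptl4 and Fgf21. Fgf21 (0.972) and Acot3 (0.956) were the widest and Hadh (0.0997) the narrowest. Fabp1, with 8200 CPM per kb in WT liver the highest level per length of the 35, had an SD of 0.462, which was 0.24 without the AEG1_MYC mice. Pooled over AEG1, MYC and WT alone, a choice made after the values were seen, 0 of the 11 and 20 of the other 24 genes were above the median of all tested genes (0.196), and Slc25a20, Decr1, Ech1 and Bdh1 were under it. Among WT mice alone the counts were 2 (Etfdh and Hadha) and 20, and Ppara (0.0429) and Bdh1 (0.0588) varied less than any of the 11 (lowest 0.085).

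**Figure D4:**
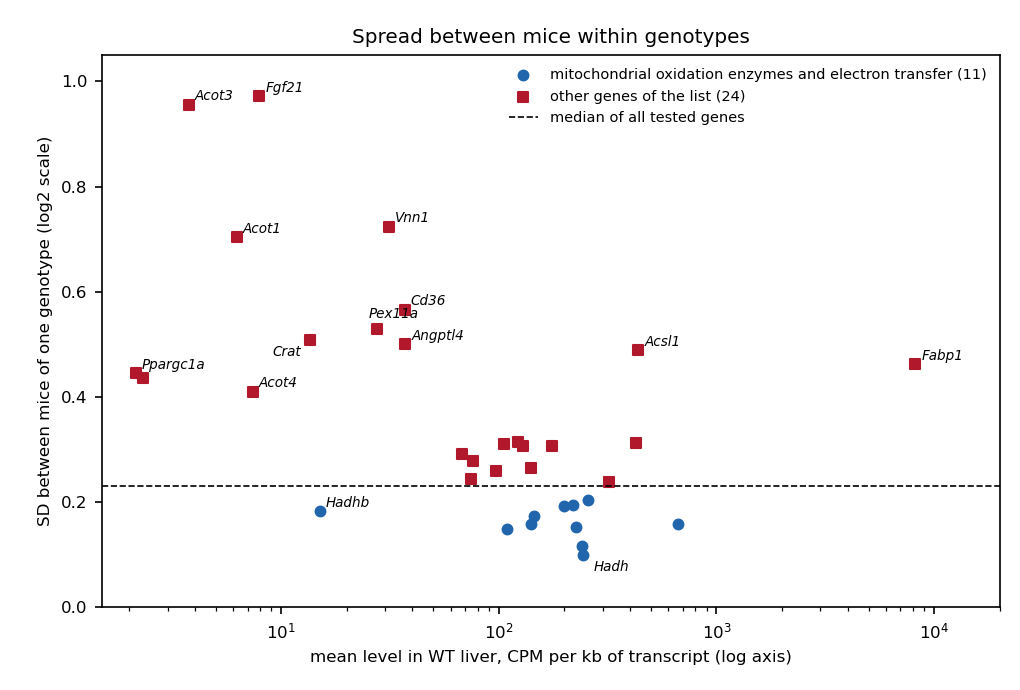
Each point is 1 of the 35 genes, with its mean level in WT liver per kb of transcript (log axis) and the SD between mice of a genotype on the log2 scale (pooled over 4 genotypes of 3 mice). With all 4 genotypes pooled, circles of the 11 genes of the mitochondrial spiral lie under the dashed median of all tested genes. Squares of the other 24 genes, some of them mitochondrial too, lie above it.

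Part of this spread was shared by the genes of a library. WT replicate 2 held the highest WT value for 27 of the 35 genes (77.1%), against 37.8% of all tested genes. AEG1 replicate 2 held the highest AEG1 value for 24 (68.6%, against 28.6% of all genes). AEG1 replicate 1 held the lowest for 23 (65.7%, against 29.5% of all genes) and the highest for 0 (against 30.1%). MYC replicate 3 led in 21 genes (60%, against 39.1%). Over all 12 libraries, WT replicate 2 was the highest for 11 of the 35 genes, where it was so for 10.6% of all genes. AEG1_MYC replicate 2 was the lowest for 10 genes and the highest for 7, where it was so for 24.5% and 23.1% of all genes. The genes of a library share its RNA and its scaling, so these counts are not independent observations.

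**Figure D5:**
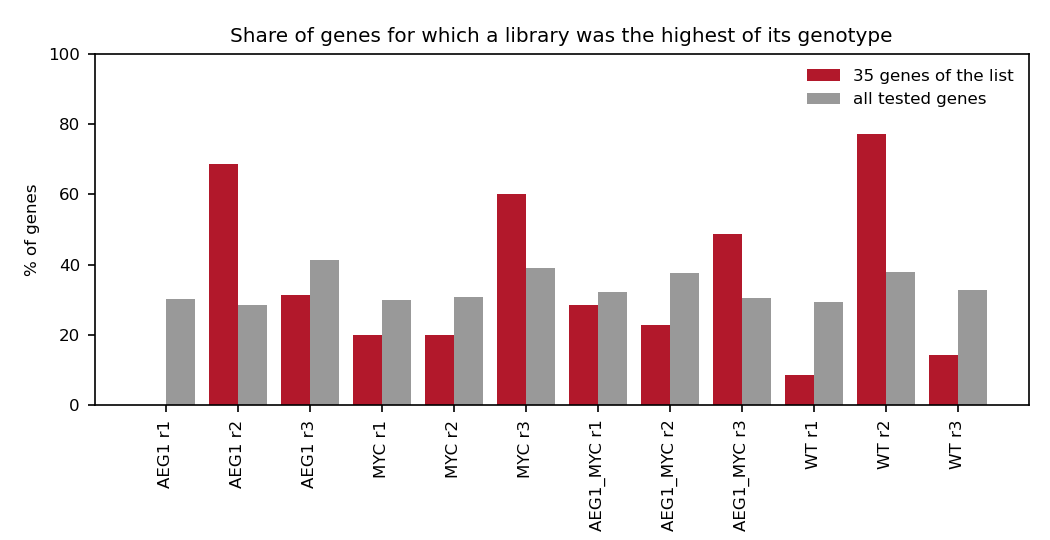
Bars give, for each library, the share of genes whose highest value within the genotype was in that library, for the 35 genes (red) and for all 13684 tested genes (grey), with AEG1, MYC, AEG1_MYC and WT from left to right. The red bar reaches 77.1% in WT replicate 2 and 68.6% in AEG1 replicate 2 and is 0 in AEG1 replicate 1.

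Clock genes, named here after their values were seen, also differed between mice of 1 genotype. Arntl, the core activator of the clock, stood at 26.5, 54.5 and 1.91 CPM in AEG1 livers, 48.7, 49.7 and 4.27 CPM in MYC livers and 2.77, 8.23 and 2.09 CPM in AEG1_MYC livers, against 21.4, 35.7 and 11.1 CPM in WT livers, and its target Dbp at 15.1, 1.16 and 115 CPM in AEG1 livers, 0.691, 0.613 and 96.4 CPM in MYC livers and 49.4, 64.9 and 142 CPM in AEG1_MYC livers, against 26.1, 7.23 and 87.6 CPM in WT livers. The repressor Nr1d1 stood at 118, 9.27 and 88.4 CPM in AEG1 livers, 46.1, 5.74 and 121 CPM in MYC livers and 26.3, 145 and 174 CPM in AEG1_MYC livers, against 97.6, 97.1 and 180.1 CPM in WT livers, and Per2, also a repressor of the clock, at 38.4, 36.7 and 84.1 CPM in AEG1 livers, 22.8, 28.1 and 51.4 CPM in MYC livers and 81.6, 50.3 and 55.9 CPM in AEG1_MYC livers, against 28.5, 16.4 and 36.8 CPM in WT livers. In AEG1_MYC versus WT, Arntl was lower without overlap (edgeR, log2 fold change -2.38 ± 1.12, adjusted p = 0.307). Per2 was higher without overlap (1.20 ± 0.42, adjusted p = 0.199), and Dbp and Nr1d1 overlapped. In AEG1_MYC versus MYC, Arntl had a log2 fold change of -2.96 ± 1.14 (adjusted p = 0.269), with overlap. The 3 AEG1_MYC mice differed among themselves in Nr1d1, lowest in replicate 1, while Per2 was highest there. All 3 were low in Arntl, as were AEG1 replicate 3 and MYC replicate 3, while the libraries highest in Arntl, AEG1 replicate 2 and MYC replicates 1 and 2, were lowest in Dbp. Several genes of the list, Ppara, Ppargc1a and Cpt1a among them, are known to cycle over the day. Ppara and Cpt1a were highest in replicate 3, the lowest in Arntl, within AEG1 and within MYC, but not within AEG1_MYC or WT, where replicate 3 had the lowest Cpt1a of WT. Ppargc1a was highest in replicate 3 within AEG1, MYC and WT, in MYC only just (12.80 against 12.71 CPM in replicate 1). Within AEG1_MYC it was lowest in replicate 3. Replicate 3 had the lowest Arntl and the highest Dbp of its genotype in all 4 genotypes, and within the list Acot1 and Fgf21 were lowest in replicate 3 of all 4 genotypes, although replicate numbers follow the order of deposit and tie no mice together. Acot1 and Fgf21 were picked after the values were seen, and the share of all genes with this pattern was not counted. The part of collection time in these differences was not tested.

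Counted by whether groups overlap, AEG1_MYC versus MYC again stood furthest from the background. In that comparison 10 of 35 genes (28.6%) were higher in every AEG1_MYC than in every MYC liver, where 9.64% of all genes were, and 2 (5.71%) were lower, where 8.85% were. The higher ones were Ppargc1a, Cpt1a, Acadl, Hadh, Acaa1a, Acot1, Acot2, Acot3, Acot4 and Angptl4, and the lower ones Acsl1 and Cpt2. In AEG1_MYC versus WT, 4 were higher without overlap (Ppargc1a, Cpt1a, Acaa1a and Acot4; 11.4% against 9.79% of all genes) and 1 lower (Acsl1; 2.86% against 9.66%). In AEG1_MYC versus AEG1, 3 were higher (Ppargc1a, Cpt1a and Acaa1a; 8.57% against 9.59%) and 1 lower (Ehhadh; 2.86% against 8.26%). In MYC versus WT 0 were higher (against 5.46%) and 1 lower (Angptl4; against 6.09%), and in AEG1 versus WT 0 were higher and 0 lower (against 5.16% and 5.53%). Apart from AEG1_MYC versus MYC, these shares lie near or below those of all genes.

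AEG1_MYC versus MYC was also counted without AEG1_MYC libraries, at an unadjusted p under 0.05, where all libraries gave 8 higher and 0 lower. Without replicate 1 there were 6 higher and 0 lower, 17.1% of the 35 against 16.1% of all genes. Without replicate 2 there were 5 higher and 0 lower, 14.3% of the 35 against 10.3% of all genes, and without replicate 3 7 higher and 4 lower, 31.4% of the 35 against 22% of all genes. Ppargc1a, Acaa1a, Acot2 and Angptl4 were among the higher genes in all 3 of these counts, and Acot1 and Acot4 only without replicate 3. Without replicates 1 and 2 together, the libraries that stood apart, replicate 3 alone is left and AEG1_MYC has no spread of its own. No count is therefore given for that setting, in which the differences of Ppargc1a and Acot2 from MYC were smaller, as given above.

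A wider list of 93 further genes of mitochondrial and peroxisomal oxidation, ketone bodies and PPARA regulation gave 1 call, in AEG1_MYC versus AEG1, where 0.322% of all genes were called. Of its 91 tested genes, edgeR called Amacr, a racemase of branched fatty acids and bile acid precursors, as higher in AEG1_MYC than in AEG1 livers (log2 fold change 0.80 ± 0.14, adjusted p = 0.0458), and called 0 in the other 6 comparisons. Amacr stood at 180.2, 151 and 151 CPM in AEG1 livers, 148, 157 and 182 CPM in MYC livers and 243, 329 and 266 CPM in AEG1_MYC livers, against 199, 196 and 179 CPM in WT livers. Every AEG1_MYC liver was above every other liver. Against MYC its log2 fold change was 0.78 ± 0.14 (adjusted p = 0.0572), and against WT it was 0.55 ± 0.14 (adjusted p = 0.122). At an unadjusted p under 0.05 the wider list held 2 genes in AEG1 versus WT (Slc27a1 and Cyp4a31, both lower), 3 in MYC versus WT (Acox3, Acsl4 and Cyp4a32, all lower), 23 in AEG1_MYC versus WT (12 higher and 11 lower), 15 in AEG1_MYC versus AEG1 (11 and 4) and 19 in AEG1_MYC versus MYC (13 and 6). These last 3 counts are 25.3%, 16.5% and 20.9% of the 91 genes, against 17.2%, 17.4% and 15.2% of all genes.

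The triglyceride lipase Pnpla2, also of the wider list, stood at 39.9, 40.4 and 60.6 CPM in AEG1 livers, 44.1, 41.04 and 60.8 CPM in MYC livers and 84.5, 88.1 and 75.1 CPM in AEG1_MYC livers, against 65.9, 51.98 and 57.9 CPM in WT livers. Its log2 fold change was 0.81 ± 0.19 (adjusted p = 0.0997) against AEG1 and 0.76 ± 0.19 (adjusted p = 0.152) against MYC, with AEG1_MYC livers above all others. In AEG1_MYC versus WT, the fatty aldehyde dehydrogenase Aldh3a2 had a log2 fold change of 0.81 ± 0.21 (adjusted p = 0.125) and Acsm3, an acyl-CoA synthetase of medium chains, one of 0.58 ± 0.16 (adjusted p = 0.141). In AEG1_MYC versus MYC the carnitine transporter Slc22a5 had a log2 fold change of 0.96 ± 0.25 (adjusted p = 0.166). The 11 genes lower in AEG1_MYC than in WT livers were led, by p, by Acsl5, a synthetase of long-chain acyl-CoA (-0.74 ± 0.24, adjusted p = 0.183), Slc16a6 (-1.06 ± 0.35, adjusted p = 0.184) and the retinol saturase Retsat (-1.57 ± 0.58, adjusted p = 0.213), which were named after their values were seen. Of the list's peroxisomal genes, 23 of 28 were negative in AEG1_MYC versus WT (median -0.18), and of its ketone body genes 6 of 7 (median -0.47), on the log2 scale, with 5 and 2 lower at an unadjusted p under 0.05. Of all 13684 genes, 6626 were negative and 1034 lower at that p. Of the peroxisomal genes, 21 were also negative in MYC versus WT and 18 in AEG1 versus WT, and of the ketone body genes 3 and 5. Some peroxisomal genes, Scp2 and Cat among them, were highest in WT replicate 2 and lowest in AEG1_MYC replicate 2. Over the 91 genes the median log2 fold change was -0.04 in AEG1 versus WT, -0.10 in MYC versus WT and -0.12 in AEG1_MYC versus WT.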

How the data were processed

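Liver RNA of 12 mice was sequenced from TruSeq libraries, per the labels' protocols. The deposited files hold read counts per gene and library, which the authors made with CASAVA 1.8.2, TopHat2 2.0.7 and HTSeq on mm9, per the submitters' processing notes. The HTSeq annotation and strand setting are not given in the sources used here. The 5 HTSeq summary lines were left out of library sizes and tests; alignments that were not unique made up 46.5% to 58% of all entries, and of the rest 11.5% to 15.5% lay in no gene and 0.634% to 0.746% were ambiguous. From the counts, edgeR 4.0.16 in R 4.3.3 fitted 1 coefficient per genotype over all 12 libraries (TMM scaling, filterByExpr, robust quasi-likelihood F test, two-sided). P-values were adjusted by Benjamini-Hochberg over 13684 genes, with 0.05 as the threshold of a call. Errors of log2 fold changes are SE. Alternatives were other scalings and filters, no robust step, DESeq2 1.42.0, limma 3.58.1 with quality weights, libraries left out and the 6 libraries of a comparison alone. The fit was run on simulated counts with large changes, the same dispersion for every gene and no outlying library. That setting differs from these data, so the run gives no measure of power here. All 35 genes are described, and of the wider list up to 3 genes per comparison with the smallest p. Acsl5, Slc16a6, Retsat, Scp2 and Cat of the wider list were named in addition, after their values were seen. The members and lists were chosen with earlier results of these data known. Gene overlaps and shared 50-base words come from GENCODE M21 on GRCm38, which is not the build of the counts. Promoters come from RefSeq on GRCm38.p6.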

Additional observations from a re-analysis of the deposited data

How the results depend on the processing

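With DESeq2 the number of genes called among the 35 was 1 in AEG1_MYC versus WT, 1 in AEG1_MYC versus AEG1, 2 in AEG1_MYC versus MYC, 1 in the interaction and 2 in the test over 4 genotypes, where edgeR called 0. DESeq2 called 652, 700, 446, 152 and 738 genes in all in these comparisons, and edgeR 36, 44, 28, 3 and 71. Leaving out 1 library gave 0 to 1 called gene in AEG1_MYC versus WT and in AEG1_MYC versus AEG1 (Fabp1, without AEG1_MYC replicate 3) and 0 in the other comparisons. The remaining settings, limma among them, gave 0. Leaving out 1 library, the median log2 fold change of the 35 genes ranged over -0.156 to 0.05 in AEG1 versus WT, -0.148 to -0.00109 in MYC versus WT, -0.108 to 0.16 in AEG1_MYC versus WT (the last without WT replicate 2), -0.0631 to 0.107 in AEG1_MYC versus AEG1, 0.052 to 0.128 in AEG1_MYC versus MYC and 0.0286 to 0.223 in the interaction. Without AEG1_MYC replicates 1 and 2 together, replicate 3 alone is left in that genotype. The median was then 0.132 in AEG1_MYC versus WT, 0.153 in AEG1_MYC versus AEG1 and 0.269 in the interaction. The cause was not tested. Of 4375 single-gene values under alternatives, 4236 kept their side of the threshold and stayed within 1 SE of the main value, 132 moved beyond it and 7 passed the threshold. Counted separately, and overlapping with these classes, 231 of the 4375 values changed sign. None of the 499 values whose main p was under 0.05 unadjusted changed sign. Of the 11 genes of the mitochondrial spiral, 0 were above the median spread of all genes when AEG1_MYC was left out and 2 in WT alone, and of the other 24 genes 20 in both, settings chosen after seeing the data. No paired analysis was possible because the replicate numbers follow the order of deposit and the labels tie no mice across genotypes.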
